A study of Drosophila melanogaster with 10 samples.

Results

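The Bomanins are a family of small secreted peptides of Drosophila melanogaster, and their transcripts were followed here in whole adult males in which the transcription factor Mef2 was knocked down. The members were the rows of the count table whose gene symbol begins with BomS, BomBc or BomT, and 12 of 17559 genes met that rule, namely BomS1 to BomS6, BomBc1 to BomBc3 and BomT1 to BomT3. All 12 passed the filter on low counts. Older names of some of them are IM1 (BomS1), IM2 (BomS2), IM3 (BomS3) and IM23 (BomBc1).

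Bomanins are made mainly in the fat body, the insect counterpart of liver and adipose tissue, and are released into the hemolymph when the Toll pathway is active. In that pathway, circulating recognition proteins start a cascade of serine proteases that cuts the ligand Spätzle, the receptor Toll then signals through Myd88, tube and pelle, and the NF-kappaB factors Dif and dorsal are freed from the inhibitor cactus to enter the nucleus. Flies that lack the main Bomanin cluster are known to succumb to fungi and Gram-positive bacteria much as Toll mutants do. Short Bomanins consist of little more than the Bomanin domain after processing, tailed ones carry a further C-terminal stretch, and bicipital ones hold a pair of the domains joined by a linker.

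Polyadenylated RNA was sequenced from 5 Mef2 knockdown and 5 control samples, each a pool of 5 males aged 5 to 10 days after eclosion. Knockdown males were w[1118] / Y with 1 copy of the c564 driver and 1 copy of the hairpin transgene UAS-Mef2-IR[GD15549]. Control males were w[1118] / Y with 1 copy of c564 and no hairpin, so that both groups share the w[1118] mutation and the driver and differ in the transgene as well as in Mef2. The GAL4 of c564, which turns on the hairpin, is made in fat body but not there alone, so hemocytes and other c564 tissues may carry the knockdown too.

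Libraries held 43823883 to 102851945 counts. Mef2 itself had 75.9, 78.7, 73.6, 81.6 and 86.6 CPM (library-size normalized counts, scaled with TMM) in knockdown replicates 1 to 5 and 95.1, 92.7, 101, 90.7 and 88.9 CPM in control replicates 1 to 5. Its log2 fold change was -0.24 (SE 0.06, adjusted p = 0.0149), measured in whole flies that also hold tissues that c564 does not reach. In replicates 4 and 5 alone it was -0.12 and not called (adjusted p = 0.280). Adjusted p-values are from the quasi-likelihood test of edgeR, corrected by the Benjamini-Hochberg method across 13928 tested genes, and values under 0.05 counted as called. Of 5 markers of males (roX1, roX2, SP, Acp26Aa and Acp36DE), the summed level was 2151 to 2565 CPM in knockdown and 2532 to 2760 CPM in control, with roX2 called higher and Acp36DE lower. Of 4 female markers (Yp1, Yp2, Yp3 and fit), the sum was 19.0 to 59.4 CPM in knockdown and 56.7 to 79.9 CPM in control, with Yp3 called lower. Gut markers (0 of 5 higher, 1 lower) summed to 1910 to 3027 CPM in knockdown and 2538 to 3485 CPM in control, and muscle markers (none of 5 called, none at an unadjusted p under 0.05) to 2122 to 4352 and 2466 to 4093 CPM in those groups.

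By direction alone, 11 of the 12 Bomanins had a log2 fold change above 0 after Mef2 knockdown. Of the 12 genes, 6 were called higher (BomS2, BomS3, BomS4, BomBc2, BomBc3 and BomT3), 1 was called lower (BomS6), and 5 were not called (BomS1, BomS5, BomBc1, BomT1 and BomT2). Over all tested genes, 11.1% were called higher and 5.51% lower. The median log2 fold change was 1.10 over the Bomanins and 0.00 over all tested genes. Called rises ran from 1.57-fold (BomT3) to 2.49-fold (BomS2), while BomS6 stood at 0.627 of its control level. All 5 knockdown libraries lay above all 5 control libraries for BomS2, BomS4, BomBc2 and BomBc3, an arrangement found in 11.8% of tested genes, and all 5 lay below for BomS6, as in 6.86% of tested genes.

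**Figure D1:**
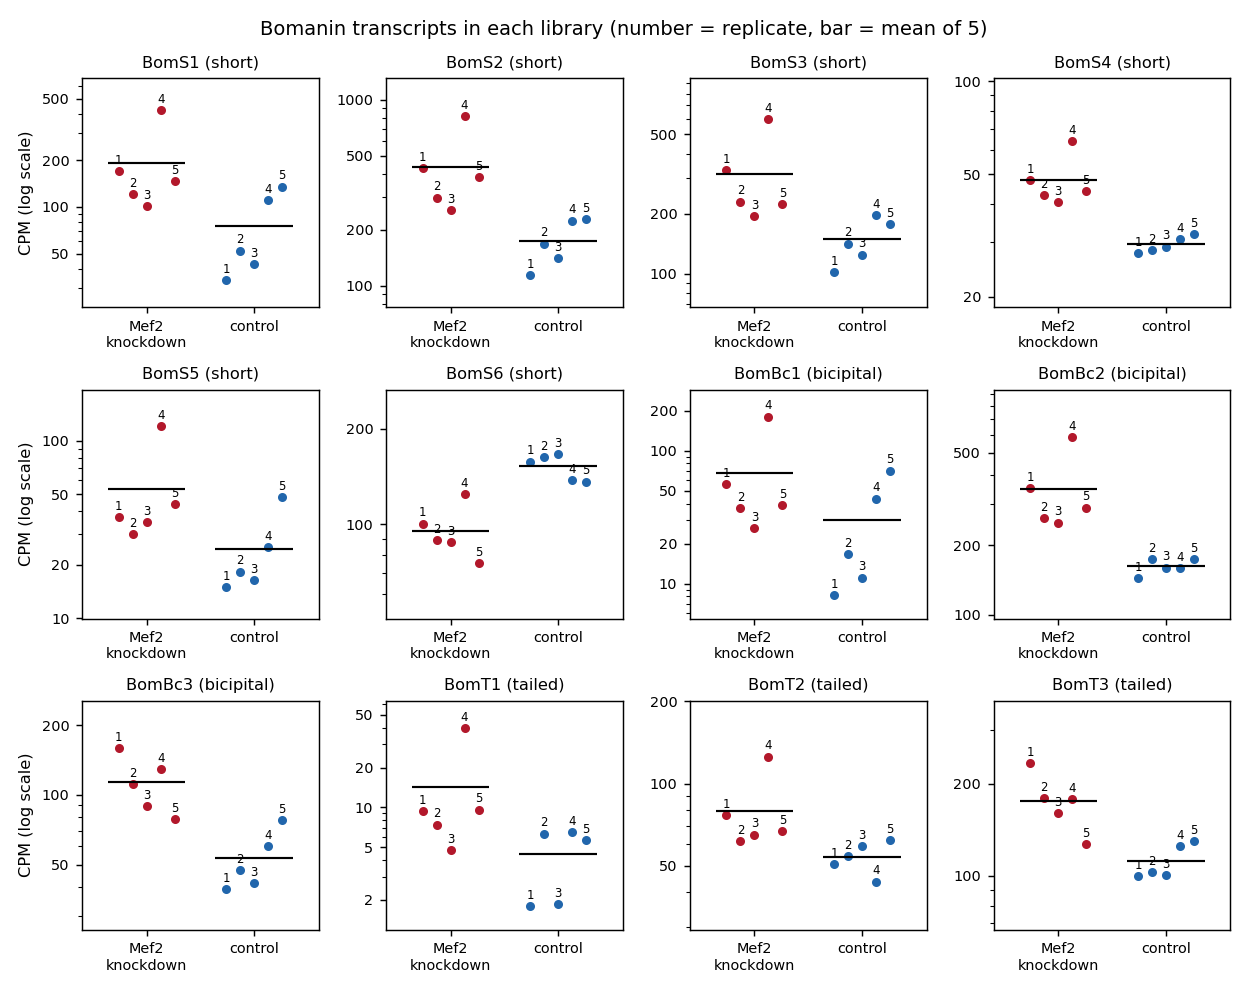
Level of each Bomanin transcript in CPM (vertical axis, log scale) in the 5 Mef2 knockdown libraries (red, left) and the 5 control libraries (blue, right). Numbers are replicates and bars are group means. BomS6 is the gene whose knockdown points all lie below the control points, and knockdown replicate 4 is the highest knockdown library for 10 of the 12 genes.

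The whole family accounted for 0.132% to 0.346% of all counts in knockdown libraries and for 0.0785% to 0.128% in control libraries. Summed over the 12 genes, the level was 2002, 1469, 1309, 3383 and 1528 CPM in knockdown replicates 1 to 5, against 794, 974, 893, 1163 and 1277 CPM in control replicates 1 to 5. The groups did not overlap in this sum, and the highest library was knockdown replicate 4. In the other 4 knockdown libraries the sum was 1309 to 2002 CPM. In RNA from whole flies, a change in the number of cells that make a transcript and a change in the amount per cell cannot be told apart.

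The 12 genes occupy 2 places in the genome (coordinates of BDGP6 from Ensembl release 115). A run of 10 spans 9.24 kb of chromosome 2R, from 18381393 to 18390629, with no gene of another family inside it. Their order is BomT1, BomBc1, BomS1, BomS4, BomBc2, BomS2, BomS3, BomT2, BomS5 and BomS6. Annotated precursors are 39 to 45 residues long for the short members, 98 to 154 for the bicipital and 63 to 117 for the tailed, and each gene but BomBc3 (up to 3) has at most 2 exons. The remaining pair, BomT3 and BomBc3, lies side by side on chromosome 3R, from 22085374 to 22088501. On 2R, 4 of 10 genes were called higher and 1 lower, and on 3R both were called higher (all genes 11.1% higher and 5.51% lower). BomS6 (18390353 to 18390629, minus strand) is the last gene of the run, with a gap of 110 bases between it and BomS5 (18389959 to 18390242, plus strand). These adjacent short-form genes had log2 fold changes of -0.67 (BomS6, SE 0.12) and 1.12 (BomS5, SE 0.43, not called). BomS4 and BomBc2 lie on opposite strands and share 88 exonic bases, and the strand setting of the counting is not given in the sources used here, so reads from that stretch may count for either gene.

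**Figure D2:**
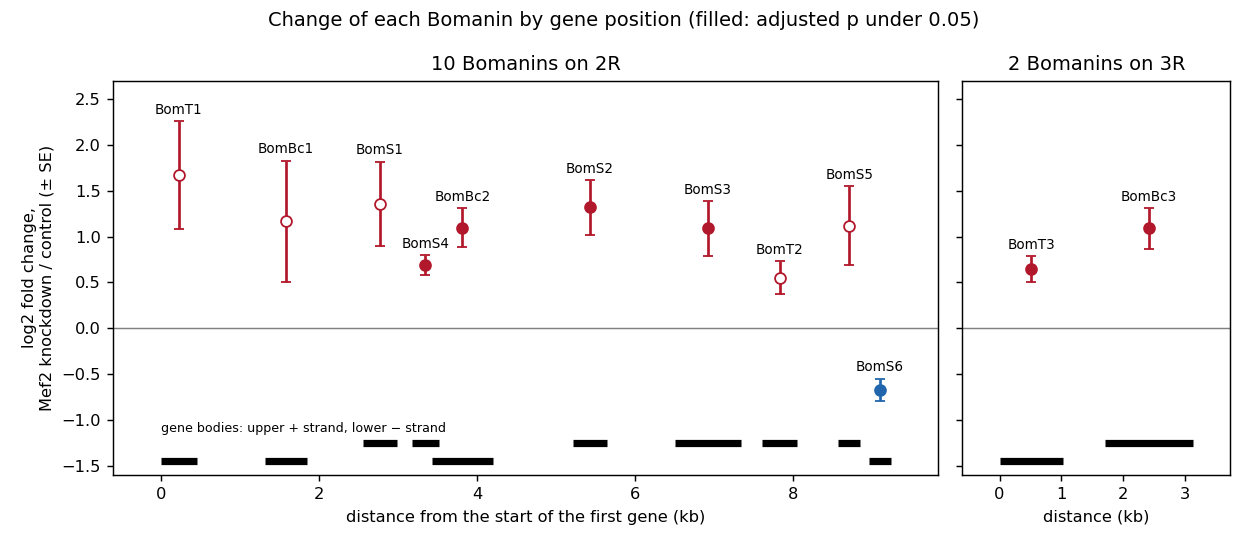
Log2 fold change of each Bomanin (vertical axis, Mef2 knockdown over control, bars are SE) against the distance of the gene from the start of the first gene at its locus in kb (horizontal axis), for the 10 genes on 2R (left) and the 2 on 3R (right). Filled points had an adjusted p under 0.05, black bars are gene bodies by strand, and the gene below 0 is BomS6 at the end of the 2R run.

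Around the 2R run, 15 annotated genes lie within 20 kb, most of them glutathione S-transferases of the GstE group, and 13 were tested. Of these, 6 were called higher and 2 lower (all genes 11.1% higher and 5.51% lower), with log2 fold changes from -1.05 to 2.48. The nearest, Idgf5, a chitinase-like growth factor gene 3036 bases beyond BomS6, rose (log2 0.47, SE 0.09, adjusted p = 0.00629). On the other side lncRNA:CR42736, 3196 bases from BomT1, fell (log2 -1.05, SE 0.27, adjusted p = 0.0238). Around the 3R pair, neither of the 2 tested genes (CG13408 and how) was called, with log2 fold changes of -0.02 and 0.12 and adjusted p of 0.888 and 0.188. The gene imd, which names the other main immune signalling route of the fly, lies 19166 bases beyond BomS6 and had a log2 fold change of 0.01 (adjusted p = 0.927). These neighbours were chosen after their values were seen.

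Among the 6 short Bomanins, 3 rose, 1 fell and 2 were not called (all genes 11.1% higher and 5.51% lower). BomS2 (FBgn0025583), whose mature peptide is a major induced molecule of infected hemolymph, had 429, 297, 255, 815 and 382 CPM in knockdown and 114, 168, 140.0, 224 and 228 CPM in control. The lowest knockdown library thus lay above the highest control library, and the log2 fold change was 1.32 (SE 0.30, adjusted p = 0.0143). BomS3 (FBgn0040736) had 330.0, 229.8, 194, 596 and 223 CPM in knockdown and 101, 141, 124, 197 and 177 CPM in control. Its groups touched, since knockdown replicate 3 fell just under control replicate 4, and the log2 fold change was 1.09 (SE 0.30, adjusted p = 0.0303). The call of BomS3 was lost without control replicate 1, 2 or 3 (adjusted p = 0.0760, 0.0665 and 0.0801), and without knockdown replicate 4 its change was 0.70.

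BomS4 (FBgn0034330) showed the least scatter of the family. It had 47.8, 42.8, 40.7, 63.9 and 43.9 CPM in knockdown and 27.7, 28.3, 29.1, 30.8 and 31.9 CPM in control. The control libraries agreed within 1.15-fold, and the log2 fold change of 0.69 (SE 0.11, adjusted p = 0.00191) had the smallest adjusted p of the 12 genes. However, 88 of its 281 exonic bases are shared with the more abundant BomBc2, which had a mean of 348 CPM in knockdown and 162 CPM in control. Reads from that stretch may count for either gene.

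BomS1 and BomS5 were not called, at fold changes of 2.57 and 2.18. BomS1 (FBgn0034329) had 171, 121, 102, 422 and 148 CPM in knockdown and 33.7, 52.3, 42.6, 111 and 135 CPM in control (log2 fold change 1.36, SE 0.46, adjusted p = 0.0633). BomS5 (FBgn0040734) had 37.2, 29.8, 34.7, 122 and 44.2 CPM in knockdown and 14.9, 18.3, 16.3, 25.3 and 48.1 CPM in control (log2 fold change 1.12, SE 0.43, adjusted p = 0.0907). In both genes control replicates 4 and 5 were the highest controls. Both of them overlapped the lower knockdown libraries for BomS1, and control replicate 5 alone did so for BomS5. Without control replicate 5 both were called (adjusted p = 0.0433 for BomS1 and 0.0375 for BomS5), and without knockdown replicate 4 the log2 fold change was 0.84 for BomS1 and 0.55 for BomS5.

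BomS6 (FBgn0040733) went the other way. It had 100.4, 89.2, 87.5, 124 and 75.5 CPM in knockdown and 157, 163, 166, 138 and 136 CPM in control, so that no knockdown library reached the lowest control library. The log2 fold change was -0.67 (SE 0.12, adjusted p = 0.00333), and it stayed between -0.80 and -0.62 when any 1 library was left out. The ratio of BomS6 to BomS5 counts was 2.70, 2.99, 2.52, 1.02 and 1.71 in knockdown replicates 1 to 5 and 10.6, 8.92, 10.2, 5.45 and 2.83 in control replicates 1 to 5. The groups overlapped in this ratio, since knockdown replicate 2 stood above control replicate 5, the lowest control. BomS6 has the shortest exon length of the family (198 bases), and short genes as a class were lower in knockdown. Among 132 other tested genes with at most 400 exonic bases (mean log2 CPM not under 2), the median log2 fold change was -0.23, with 18.9% called lower and 1.52% higher. The knockdown libraries differed in this class. Its median deviation from the knockdown mean was -0.45 in knockdown replicate 5 and 0.07 to 0.18 in the other knockdown libraries. The part of transcript length in the fall of BomS6 was not tested. Of the 7 Bomanins in that length class, 2 (BomS2 and BomS4) were higher and 1 (BomS6) lower.

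The 3 bicipital Bomanins had log2 fold changes of similar size, and 2 of them were called higher (all genes 11.1% higher). BomBc2 (FBgn0034331) had 352, 262, 250.1, 587 and 290.1 CPM in knockdown and 144, 174, 159.7, 159 and 174 CPM in control. Its controls agreed within 1.21-fold, the groups lay apart, and the log2 fold change was 1.10 (SE 0.21, adjusted p = 0.00475). BomBc3 (FBgn0040582), on 3R, had 159, 111, 89.4, 129 and 78.6 CPM in knockdown and 39.3, 47.3, 41.7, 60.1 and 77.7 CPM in control. The gap between the groups was narrow, with knockdown replicate 5 just above control replicate 5, and the change was 1.09 on the log2 scale (SE 0.22, adjusted p = 0.00713).

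BomBc1 (FBgn0034328) was the most variable of the 3. It had 56.3, 37.1, 26.0, 179.8 and 39.1 CPM in knockdown and 8.18, 16.7, 11.1, 43.5 and 70.7 CPM in control. The control libraries spanned 8.64-fold and the knockdown libraries 6.92-fold, and the log2 fold change of 1.17 (SE 0.66, adjusted p = 0.219) was within that spread. Without knockdown replicate 4 it was 0.39, and without control replicate 5 it was 1.76, called in neither case (adjusted p = 0.660 and 0.0995). In replicates 1 to 3 alone BomBc1 was called (1.72, adjusted p = 0.00219), and in replicates 4 and 5 alone it was not (0.90, adjusted p = 0.317).

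Of the 3 tailed Bomanins, 1 was called higher (all genes 11.1% higher). BomT3 (FBgn0038930), on 3R, had 233, 179.5, 159.8, 178 and 127 CPM in knockdown and 100.1, 103, 101, 125 and 130.1 CPM in control. Only knockdown replicate 5 lay within the control range, and the log2 fold change was 0.65 (SE 0.14, adjusted p = 0.0108). BomT2 (FBgn0040735) had 76.9, 61.8, 65.2, 126 and 67.0 CPM in knockdown and 50.9, 54.3, 59.2, 43.8 and 62.2 CPM in control, and its log2 fold change of 0.55 (SE 0.18, adjusted p = 0.0584) narrowly missed the threshold. It was called without knockdown replicate 2 or 3 (adjusted p = 0.0426 and 0.0484), and without knockdown replicate 4 its log2 fold change was 0.31. BomT1 (FBgn0262838) was the least abundant member, with 9.44, 7.42, 4.73, 40.0 and 9.64 CPM in knockdown and 1.79, 6.33, 1.85, 6.53 and 5.66 CPM in control. Its log2 fold change was the highest of the family but also poorly determined (1.67, SE 0.59, adjusted p = 0.0709), and it was 0.80 without knockdown replicate 4. Leaving out knockdown replicate 3 brought BomT1 to an adjusted p of 0.0432.

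With the replicate number as a block, BomS1, BomS5 and BomT1 were also called (adjusted p = 0.00971, 0.0324 and 0.0195), which gave 9 higher and 1 lower, where 13.1% of all tested genes were called higher and 7.32% lower in that fit. DESeq2 also gave 9 higher and 1 lower (all genes 14.0% higher and 9.56% lower), and limma voom 6 higher and 1 lower (all genes 10.7% higher and 5.89% lower).

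Set against each other per kilobase of exon, the members differed by more than an order of magnitude in level, and their order differed between the groups. In knockdown libraries BomS2 came first, with 1188 ± 607 CPM per kilobase (SD, n = 5), followed by BomS1 (534 ± 363), BomBc2 (489.8 ± 196), BomS6 (482 ± 93.0) and BomS3 (409 ± 215). BomS2 exceeded BomS1 in all 5 knockdown libraries, by 1.90 to 2.55-fold, whereas BomS1 and BomBc2 changed places between libraries, as did BomBc2 and BomS6. In control libraries BomS6 came first, with 768 ± 71.6 CPM per kilobase, then BomS2 (476 ± 137), BomBc2 (228 ± 17.8), BomS1 (208 ± 125) and BomS3 (193 ± 50.3). BomS6 exceeded BomS2 in all 5 controls, by 1.11 to 2.55-fold, and BomS2 exceeded BomBc2 in all 5.

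Lower in the order, BomT3, BomT2, BomS5 and BomS4 had 267 ± 58.6, 207 ± 69.3, 246 ± 177 and 170.2 ± 33.3 CPM per kilobase in knockdown and 170.1 ± 22.1, 141 ± 18.7, 113 ± 63.0 and 105 ± 6.25 in control. BomBc1, BomBc3 and BomT1 closed the order in both groups, with 144 ± 136, 87.2 ± 24.7 and 36.5 ± 37.2 CPM per kilobase in knockdown and 64.2 ± 57.0, 40.9 ± 12.2 and 11.4 ± 6.17 in control. BomS5 and BomS4 changed places between control libraries, and so did BomBc1 and BomBc3. Exon length here is the union over annotated transcripts, which lowers the value of BomS3 and BomBc3, each with a longer alternative transcript, and fragments of such short mRNAs may be recovered unevenly.

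The make-up of the family's transcript pool differed accordingly. BomS6 held 12.2% ± 2.78 of the summed level per kilobase in knockdown (range 8.27% to 15.4%) and 31.4% ± 7.36 in control (22.3% to 39.0%), and BomS2 held 27.4% ± 2.57 in knockdown and 18.6% ± 2.65 in control (SD, n = 5 each). Neither share overlapped between the groups. The 6 short Bomanins together held 68.7% to 73.5% in knockdown and 73.0% to 75.4% in control, the bicipital ones 16.1% to 17.4% in knockdown and 12.3% to 14.8% in control, and the tailed ones 9.24% to 14.8% in knockdown and 11.6% to 14.2% in control.

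**Figure D3:**
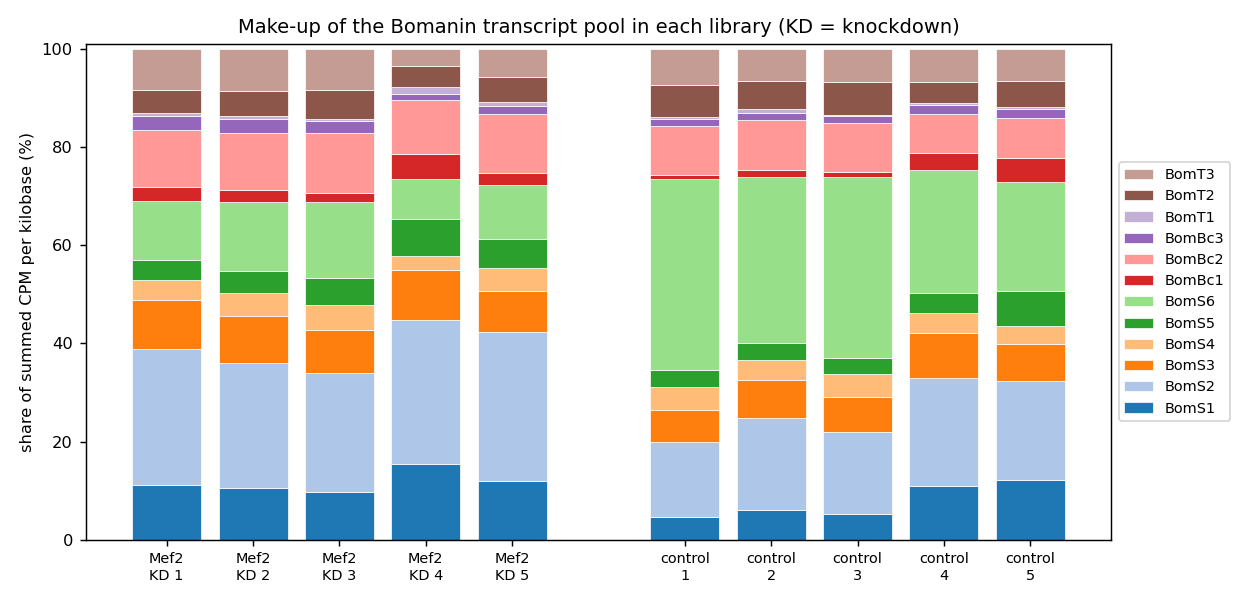
Share of each Bomanin in the summed CPM per kilobase of the 12 genes (vertical axis, percent), 1 bar per library, with the 5 Mef2 knockdown libraries at left and the 5 control libraries at right. The light green share of BomS6 is 8.27% to 15.4% in knockdown and 22.3% to 39.0% in control, and the light blue share of BomS2 is 24.2% to 30.4% in knockdown and 15.3% to 22.0% in control.

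The members also varied between libraries of the same group, and most of them together. After subtraction of each gene's group mean from its log2 CPM, the median Pearson r over the 66 pairs of members was 0.74 across the 10 libraries, with a range from 0.17 to 0.99, and 28 pairs were above 0.8. By ranks (Spearman) the lowest value was -0.13, for BomS5 and BomS6 (Pearson r 0.26), and BomBc1 and BomS1 stayed at 0.99. BomBc1 and BomS1 were the closest pair (r = 0.99), followed at r = 0.97 by BomS2 and BomS3. BomT3 and BomBc3, the 3R pair, tracked each other (r = 0.92) but had median r of 0.37 and 0.57 with the other members, and BomS6 had a median r of 0.36. All these values share the libraries and their scaling, and short-form genes resemble each other in sequence, so they describe the libraries only. Such joint variation was not particular to the family. Genes outside it had a median r with the members of up to 0.91 (RpL37-1, a ribosomal protein gene).

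Knockdown replicate 4 was the library that stood apart. It was the highest knockdown library for 10 of 12 members, with a median deviation of 0.93 from the knockdown mean on the log2 scale, and knockdown replicate 3 was the lowest for 7. Among controls, replicate 5 was highest for 9 members (median deviation 0.36) and replicate 1 lowest for 10 (median deviation -0.45). BomT3 and BomBc3 were highest in knockdown replicate 1 rather than replicate 4. Genes of at most 400 exonic bases had a median deviation of 0.18 in knockdown replicate 4 and of -0.45 in knockdown replicate 5, and the part of such library differences in the Bomanin values was not tested. Without both libraries numbered 4, an omission chosen after the data were seen, 6 Bomanins were called higher and 1 lower (all genes 6.71% higher and 3.39% lower).

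**Figure D4:**
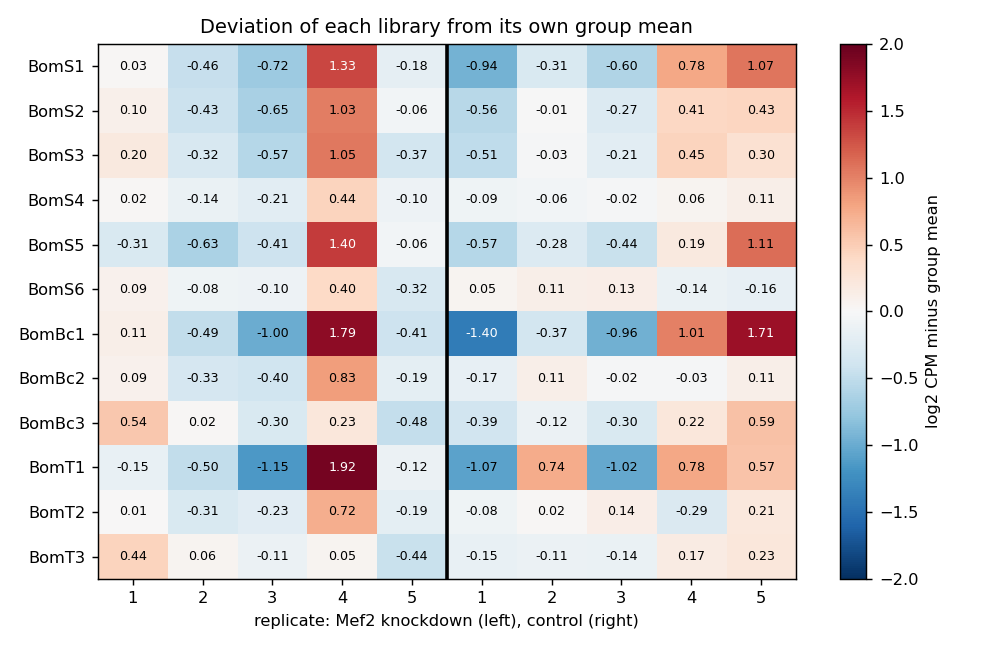
Deviation of each Bomanin (rows) in each library (columns, Mef2 knockdown replicates 1 to 5 left of the line and control replicates 1 to 5 right of it) from its own group mean, in log2 CPM, with red above and blue below the mean. Knockdown replicate 4 is red throughout, from 0.05 (BomT3) to 1.92 (BomT1), and control replicates 1 and 3 are blue for most members.

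The libraries fell into 2 sets in the data, replicates 1 to 3 and replicates 4 and 5, for which the labels name no batch. Within replicates 1 to 3 the differences in mean log2 CPM between knockdown and control were 1.72 for BomBc1, 1.60 for BomS1, 1.45 for BomBc3 and 0.90 for BomT3, and within replicates 4 and 5 they were 0.60, 1.03, 0.56 and 0.24 for the same genes. For BomBc2 and BomT2 the difference was larger in the second set (0.84 and 0.31 in replicates 1 to 3, 1.31 and 0.81 in replicates 4 and 5), and for BomS6 it was -0.81 and -0.50 in the 2 sets. No member passed the test of a difference between the sets (smallest adjusted p = 0.0583 for BomT3, then 0.0916 for BomBc3), a test that called 18.8% of all genes. At an unadjusted p under 0.05, which at least that 18.8% of all genes also passed, these same 2 of the 12 members passed. With the set as a covariate, 11 Bomanins were called higher and 1 lower, where 19.3% of tested genes were called higher and 15.0% lower. In replicates 1 to 3 alone 10 were higher and 1 lower (all genes 15.4% higher and 9.92% lower). In replicates 4 and 5 alone 3 (BomS2, BomS4 and BomBc2) were higher and none lower (all genes 13.2% higher and 14.4% lower). In that smaller fit BomS3, BomS6, BomT3 and BomBc3 lost their calls, at log2 fold changes of 1.10, -0.49, 0.23 and 0.56 (adjusted p = 0.0823, 0.127, 0.298 and 0.116).

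Genes that act upstream of the Bomanins in the Toll pathway rose in part. Of 28 listed and tested, 9 were called higher and 1 lower (all genes 11.1% higher and 5.51% lower). With the replicate number as a block, 14 were higher and none lower (all genes 13.1% higher and 7.32% lower). The median log2 fold change of the list was 0.23. The highest fold changes on the list were those of recognition genes. PGRP-SD, a peptidoglycan recognition protein, had 57.9, 51.2, 52.5, 90.8 and 63.7 CPM in knockdown and 17.8, 16.7, 14.8, 28.1 and 29.4 CPM in control (log2 fold change 1.57, SE 0.22, adjusted p = 0.000833). PGRP-SA, which senses Gram-positive peptidoglycan, had 31.2 to 61.7 CPM in knockdown and 13.7 to 22.9 CPM in control (log2 1.31, SE 0.20, adjusted p = 0.00156), and its partner GNBP1 had 15.1 to 22.6 CPM in knockdown and 10.0 to 12.5 CPM in control (log2 0.65, SE 0.12, adjusted p = 0.00491). GNBP3, the sensor of fungal glucans, was not called and had a log2 fold change of -0.04.

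In the protease cascade, SPE, the enzyme that cuts Spätzle, rose (log2 0.58, SE 0.09, adjusted p = 0.00134), as did the serpin gene nec, whose product restrains the cascade (log2 0.52, SE 0.10, adjusted p = 0.00428). The proteases modSP, grass, psh and Hayan were not called, with log2 fold changes of -0.10, 0.23, 0.19 and 0.60, and the 1 lower gene was the protease homolog sphinx2 (-0.18, adjusted p = 0.0467, a call lost in 7 of the 10 fits that left out 1 library). The ligand gene spz (0.53), the adaptor Myd88 (0.31), the kinase pll (0.40) and the factor Dif (0.29) were called higher, while the receptor Tl (0.51, adjusted p = 0.0504), the adaptor tub (0.14), the inhibitor cact (0.30) and the factor dl (0.19) were not. SPE shares 107 exonic bases with CG18754 on the same strand and PGRP-SD shares 35 with CG7492 on the opposite strand.

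Other effectors known to follow Toll changed in part. Of 14 tested, 6 were called higher and 1 lower (all genes 11.1% higher and 5.51% lower), with a median log2 fold change of 0.56. Bbd encodes Bombardier, a secreted protein known to be needed for short Bomanins to appear in hemolymph. It had 1865, 1345, 1431, 2405 and 1727 CPM in knockdown and 504, 553, 529.6, 818 and 1198 CPM in control, with every knockdown library above every control library (log2 fold change 1.28, SE 0.25, adjusted p = 0.00579). SPH93, a serine protease homolog, had 2.99 to 12.8 CPM in knockdown and 0.187 to 1.39 CPM in control (log2 3.16, SE 0.52, adjusted p = 0.00216). BaraB rose at a low level, with 0.813 to 1.03 CPM in knockdown and 0.264 to 0.464 CPM in control (log2 1.31, SE 0.18, adjusted p = 0.000709). The clotting protein gene fon (log2 0.48, SE 0.09, adjusted p = 0.00403), CG15293 (log2 0.64, SE 0.12, adjusted p = 0.00494, but 0.20 and not called in replicates 4 and 5 alone) and the serpin gene Spn88Eb (1.58) were also called higher, and BaraC was called lower (-0.26), a call lost in 8 of the 10 fits that left out 1 library. The Daisho peptide genes Dso1 (0.43, adjusted p = 0.213) and Dso2 (0.66, adjusted p = 0.134), which like the short Bomanins encode small Toll-induced peptides, were not called, nor were the antimicrobial peptide genes Mtk (-0.04) and Def (1.65).

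**Figure D5:**
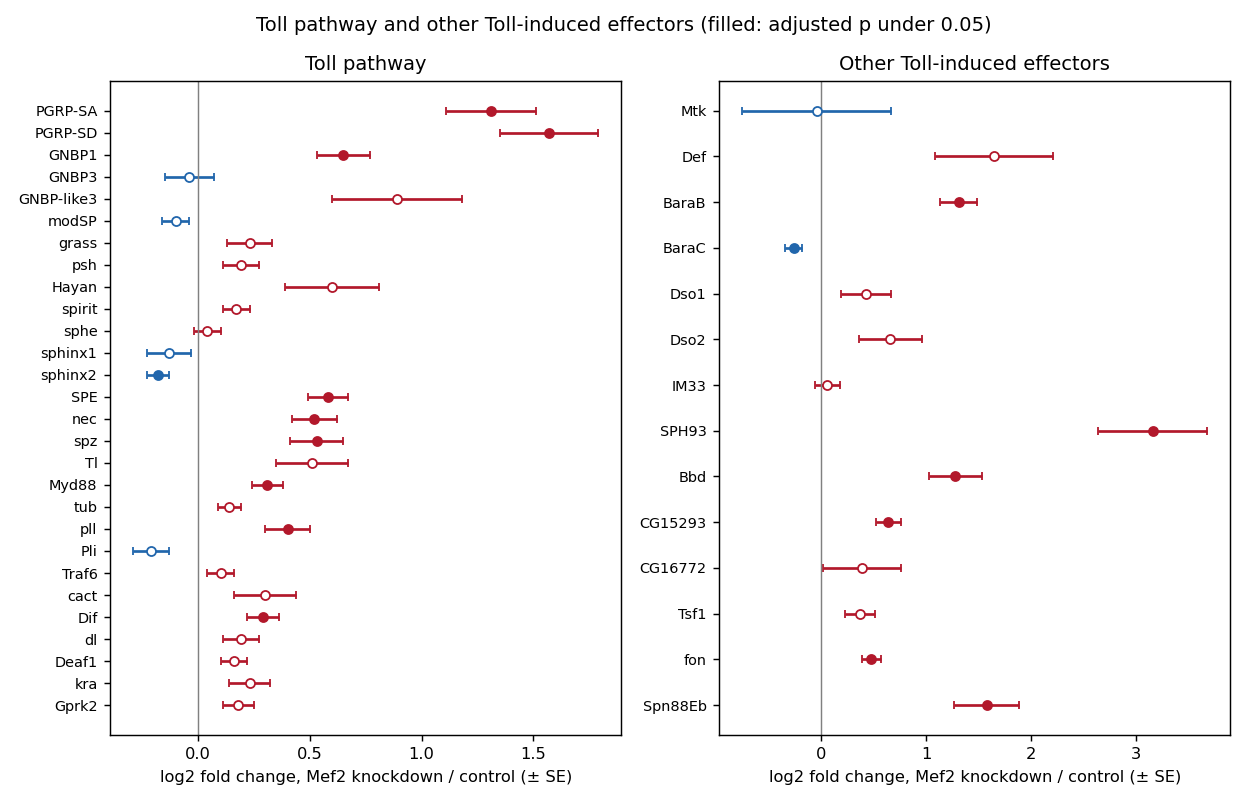
Log2 fold change (horizontal axis, Mef2 knockdown over control, bars are SE) of 28 Toll pathway genes (left) and of 14 tested Toll-induced effectors other than Bomanins (right). The left list runs from recognition genes at the top to Dif and dl, with Deaf1, kra and Gprk2 at the bottom. Filled points had an adjusted p under 0.05, and PGRP-SD (1.57) and SPH93 (3.16) lie farthest right in the 2 lists.

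Most marker genes of hemocytes, the blood cells of the fly, were also higher in knockdown than in control. Of 10 (Hml, NimC1, eater, Sr-CI, Pxn, srp, vkg, Col4a1, crq and Ppn), 8 were called higher and none lower (all genes 11.1% higher and 5.51% lower). Their summed level was 1417 to 1782 CPM in knockdown and 1022 to 1199 CPM in control. No hemocyte marker was at 0, and several of them are also expressed in fat body. Of 7 tested fat body markers (apolpp, Apoltp, Mtp, Lsd-1, Lsd-2, AkhR and Lsp2), 2 were called higher and 1 lower, and with the low Fbp1 and with Pepck1, which was at 0 in all libraries, they summed to 3190 to 3861 CPM in knockdown and 3167 to 4022 CPM in control. The part of either cell type in the Bomanin values was not tested.

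The genes most like the Bomanins in their variation between libraries of a group were ribosomal protein genes. Among 10604 genes whose mean log2 CPM was not under 2, the 5 with the highest median r with the 12 members over the 10 libraries, after subtraction of group means, were RpL37-1, RpL12, RpS15 and RpL9 (0.91 each) and RpS16 (0.90). The member each of them followed least was BomT3, or BomS6 for RpL12, at r of 0.26 to 0.39. None of the 5 was called between the groups, with log2 fold changes of 0.09 to 0.22. RpL37-1, for example, had 557, 550.1, 520.0, 682 and 550.4 CPM in knockdown and 462, 480.0, 469.9, 513 and 538 CPM in control, again highest in knockdown replicate 4 and, among controls, in replicate 5. Over 82 ribosomal protein genes the median deviation in knockdown replicate 4 was 0.23, against 0.93 for the Bomanins in that library. Dso2 ranked 55 and Dso1 ranked 60 on the same measure (median r 0.85 each), and Bbd ranked 417 (0.74).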

How the data were processed

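The deposited data are raw gene counts, whole numbers for 17559 FlyBase identifiers in 10 libraries. Per the submitters' processing notes, bcl2fastq, STAR 2.4.0j, featureCounts and limma were used with BDGP6. No label gives the annotation release, the strand setting or how multi-mapping reads were handled, so counts of similar Bomanin genes are uncertain where they share sequence. Per the labels' protocols, 250 ng of RNA entered a stranded mRNA preparation, amplified by 14 PCR cycles.

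Symbols and coordinates came from Ensembl release 115 of BDGP6 and covered 17253 identifiers. Drs and BaraA2 are not analysed here, and BaraA1 and IM18 were too low to be tested.

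Groups were compared with the quasi-likelihood test of edgeR 4.0.16 (R 4.3.3) after TMM scaling, low counts removed by filterByExpr (minimum count 10), and group as the only term, fitted to all 10 libraries. The fit was also run on simulated counts that held no replicate sets and no outlying library. That run thus does not show how the fit handles either. The SE of a log2 fold change is its size over the square root of F. Levels are TMM-scaled CPM. Alternatives used DESeq2 1.42.0 and limma 3.58.1. The labels call the samples biological replicates. Every pair of libraries within a group differed by more than counting noise (lowest chi-square per degree of freedom 6.86).

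Both groups carry the replicate numbers 1 to 5. Libraries with the same number, as deviations from their group means, had r of 0.16 to 0.28 in the 5 pairs, over 0.1 each time, and an alternative fit takes the number as a block. Libraries of another number in the same set (replicates 1 to 3, or 4 and 5) correlated at 0.09 to 0.34, and those of different sets at -0.31 to -0.10. Values for the same number lay within the range for other numbers of the same set. The data thus separate the sets but do not show a pairing by replicate number, and the block fit is only an alternative.

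The members, the lists and the tests were chosen with earlier results of these data known. Named genes were all Bomanins, Mef2, Bbd, the 5 called genes with the smallest adjusted p of each Toll list, and the 5 genes most like the Bomanins by median r. Other listed genes were named after their values were seen.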

Additional observations from a re-analysis of the deposited data

Results flagged for a closer look

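In knockdown replicate 4, 5 Bomanins lay far from the other 4 knockdown libraries, with a gap to the nearest library above 0.710 of the group's range. They were BomT1 (40.0 CPM, others 4.73 to 9.64), BomBc1 (179.8 CPM, others 26.0 to 56.3), BomS1 (422 CPM, others 102 to 171), BomT2 (126 CPM, others 61.8 to 76.9) and BomS5 (122 CPM, others 29.8 to 44.2). The same library stood apart for RpL37-1 (682 CPM), RpL12 (729.8 CPM), RpS15 (885 CPM) and RpL9 (694 CPM). These ribosomal protein genes were picked because they varied like the Bomanins over the same libraries, so their standing apart there follows largely from that choice. The 9 cases came from 56 sets of 5 libraries, and all 9 rest on 1 library. A chance rate of about 1 in 20 holds for independent sets, which these are not, so the number of cases cannot be set against it.

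The effect of the knockdown differed between replicates 4 and 5 and replicates 1 to 3 by 0.24 on the log2 scale for Mef2 (edgeR interaction test, adjusted p = 0.0425), and by -0.70 for CG15293 (adjusted p = 0.00723).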

How the results depend on the processing

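No Bomanin changed direction under any of the 21 alternatives. The number higher was 6 under DESeq2 size factors, upper-quartile scaling, no filter beyond 1 count and limma voom, 9 with DESeq2 or the replicate block, and 5 to 9 when 1 library was left out. It was 11 with the replicate set as covariate, 10 in replicates 1 to 3 alone and 3 in replicates 4 and 5 alone, where 0 were lower. The number lower was 1 in every other fit. Over all tested genes, the counts of 1549 higher and 768 lower became 2687 and 2084 with the set as covariate, 936 and 473 without both libraries numbered 4, and 853 to 1612 and 414 to 941 with 1 library left out (higher 952, 1001 and 853 without control replicates 1, 2 and 3, and lower 473, 444, 414 and 454 without control replicates 1, 3, 4 and 5). The number lower was 1306 with DESeq2, 1547 with quality weights, 1386 in replicates 1 to 3 and 2011 in replicates 4 and 5. Higher genes were 66.9% of calls with TMM and 53.2% with upper-quartile scaling. Toll pathway genes higher were 14 with the replicate block, 19 with the set as covariate, 14 in replicates 1 to 3, 15 in replicates 4 and 5, and 8 to 11 with 1 library left out. Those lower were 2 with upper-quartile scaling, DESeq2, quality weights or the set as covariate, 0 with the replicate block or without both libraries numbered 4, and 0 to 1 with 1 library left out. Other effectors higher were 11 in replicates 1 to 3 and 6 to 7 with 1 library left out, and those lower were 0 in replicates 4 and 5 or without both libraries numbered 4, and 0 to 1 with 1 library left out. Mef2 was not called in replicates 4 and 5 alone (-0.12, adjusted p = 0.280) and ranged from -0.29 to -0.21 with 1 library left out. With the replicate block no call of a Bomanin other than BomS1, BomS5 and BomT1 changed. The causes were not tested. The lowest Bomanin count was 88 (BomT1, control replicate 1), and the spread between libraries was wider than for most genes (median biological coefficient of variation 0.283 for Bomanins, 0.104 for all genes).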
